A study of Mus musculus with 20 samples.

Results

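Among the 25190 genes counted in the mouse hippocampus, 7 of those that encode GABA-A receptor subunits are described here: α2 (Gabra2), α3 (Gabra3), α4 (Gabra4), α5 (Gabra5), β1 (Gabrb1), β2 (Gabrb2) and δ (Gabrd). They were taken from the count table by gene name, and all 7 were present with reads in each of the 20 libraries. The libraries came from wild-type male C57BL/6JOlaHsd mice, 4 months old, that had received repeated bilateral infusions into the hippocampus, and tissue was taken 24 hours after the final behavioural test. Vehicle mice were given artificial cerebrospinal fluid, Control mice a pool of small RNAs (sRNAs) purified from post-mortem hippocampi of individuals without psychiatric illness, and Pool 1 and Pool 2 mice sRNA pools made from separate cohorts of patients with schizophrenia, with 5 libraries per group. Each infused material was a single pool, so that the 5 libraries of a group are not replicates of the donors. The series description names CA1 as the tissue, whereas the sample labels name the hippocampus.

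GABA-A receptors are pentameric chloride channels opened by GABA, the main inhibitory transmitter of the adult brain. Most contain a pair of α and a pair of β subunits, with a γ subunit in receptors held at synapses by the scaffold gephyrin, or a δ subunit in receptors outside synapses that carry tonic inhibition. The α subunit sets much of the location and pharmacology of the receptor: α2 is typical of synapses on the axon initial segment and soma of pyramidal cells, α5 is abundant in the dendrites of hippocampal pyramidal cells and is best known for tonic inhibition, and α4 pairs with δ in dentate granule cells and in thalamic relay neurons.

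The subunit genes lie in clusters on the mouse genome (GRCm38). Gabra2 (chr5:70957597-71095849), Gabra4 (chr5:71569749-71658308) and Gabrb1 (chr5:71658113-72149037) are in a cluster on chromosome 5, in which Gabra4 and Gabrb1 are transcribed away from each other and share 196 bases of their gene bodies, 46 of them exonic. Gabrb2 (chr11:42419757-42629028) belongs to a cluster with Gabra6, while Gabra5 (chr7:57407672-57510059), Gabra3 (chrX:72432681-72656848) and Gabrd (chr4:155384980-155398112) lie on other chromosomes. The strand setting of the counting is not given in the sources used here, so that reads from the shared exonic bases of Gabra4 and Gabrb1 may count for neither or for the other gene.

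The promoters of Gabra4, Gabrb1 and Gabrb2 are shown because the RNA of these 3 subunits varied together over the libraries, for Gabra4 mainly through 2 of them, and because the first pair starts back to back. Each window, from RefSeq on GRCm38.p6, covers 250 bases before to 50 bases after a start site, with matches to the GC box (GGGCGG), the CCAAT box (CCAAT), the TATA box (TATAAA) and the cyclic AMP response element (TGACGTCA), searched on both strands, in capitals.
Gabra4 (chr5:71658259-71658558, minus strand): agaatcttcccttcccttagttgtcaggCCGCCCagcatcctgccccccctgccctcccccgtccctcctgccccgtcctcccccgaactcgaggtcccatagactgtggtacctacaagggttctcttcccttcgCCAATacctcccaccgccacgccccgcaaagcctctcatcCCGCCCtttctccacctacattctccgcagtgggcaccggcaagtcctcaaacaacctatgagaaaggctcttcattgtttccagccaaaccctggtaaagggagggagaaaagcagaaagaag
Gabrb1 (chr5:71657671-71657970, plus strand): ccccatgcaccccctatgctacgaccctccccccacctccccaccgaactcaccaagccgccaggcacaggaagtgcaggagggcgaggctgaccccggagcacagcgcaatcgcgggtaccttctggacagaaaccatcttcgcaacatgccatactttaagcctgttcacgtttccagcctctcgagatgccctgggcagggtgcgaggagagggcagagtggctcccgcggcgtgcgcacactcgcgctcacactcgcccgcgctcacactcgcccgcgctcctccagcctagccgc
Gabrb2 (chr11:42420190-42420489, plus strand): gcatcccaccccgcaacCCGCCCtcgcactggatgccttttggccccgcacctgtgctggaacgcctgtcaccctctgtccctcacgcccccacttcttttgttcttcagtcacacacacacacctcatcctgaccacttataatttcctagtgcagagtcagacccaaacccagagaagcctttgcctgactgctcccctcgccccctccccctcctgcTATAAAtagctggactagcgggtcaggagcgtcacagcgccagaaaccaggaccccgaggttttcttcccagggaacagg
The RefSeq table lists 1 window for Gabra4, 2 for Gabrb1 and 3 for Gabrb2, and the first listed is shown. The Gabra4 window held 2 GC boxes and 1 CCAAT box, that of Gabrb1 held none of the 4 motifs, and that of Gabrb2 held 1 GC box and 1 TATA box. Of those not shown, the second of Gabrb1 and the third of Gabrb2 held none, and the second of Gabrb2 held 1 CCAAT box. Of all 32851 promoter windows of the same length, 35.7% had a GC box, 37.4% a CCAAT box, 13.6% a TATA box and 1.79% a cyclic AMP response element. Promoter windows were found for 6 of the 7 subunits, the exception being Gabrd, and a match is a description of the letters only. Whether the promoters shown bear on the shared variation was not tested. Gabrb1 and Gabrb2 also varied with the level of long transcripts over the libraries (r = 0.88 and 0.82), as described below.

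Library totals lay between 20588280 and 25543939 counts, and levels are given as CPM, the count relative to a library total that was scaled by the TMM factor of edgeR. At this depth 3 counts, taken as the floor, correspond to 0.117 to 0.146 CPM, far under the lowest subunit value of 18.8 CPM. Counts of the same group differed by more than counting error in all 40 pairs of libraries (chi-square over its degrees of freedom 7.59 to 60.8). The labels number the libraries without saying that they come from separate mice, so that p-values measure the spread between these libraries. The marker genes of the hippocampal fields were present in each library, with a summed level of 547 to 1447 CPM for 8 CA1 genes (such as Wfs1) and 354 to 1027 CPM for 10 dentate granule cell genes (such as Prox1). Vehicle replicate 4 stood apart by choroid plexus genes such as Ttr, with 9118 CPM over 8 genes, and Pool 2 replicate 1 by microglial genes such as Aif1, with 834 CPM over 8 genes against 268 to 414 CPM in the other libraries. Gabra2 RNA is known to differ among C57BL/6 substrains, and the genotype at Gabra2 was not tested here.

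Per kilobase of exon, Gabra5 was the most abundant of the 7 subunits in 20 of 20 libraries, at 82.1 ± 10.5 CPM per kilobase (SD, n = 20), and made up 46.9% ± 5.45 of their sum. Gabra4 followed at 19.0 ± 3.62, Gabrb2 at 18.8 ± 5.01, Gabra2 at 16.8 ± 6.62, Gabrb1 at 15.2 ± 3.32, Gabra3 at 12.3 ± 3.10 and Gabrd at 11.5 ± 3.14 CPM per kilobase. The ratio of Gabra5 to Gabra4 ranged from 2.92 to 6.77, whereas each later neighbour in this order differed in its mean by less than the SD, with the higher one ahead in 9 to 15 of the 20 libraries. The cerebellar α6 gene, Gabra6, was at 1.10 ± 0.756 CPM per kilobase. With the length of the longest transcript in place of all exons, Gabra5 kept the first rank in every library at 91.4 ± 11.7, and Gabrb2 (29.9 ± 7.98) and Gabra4 (28.2 ± 5.36) changed places.

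**Figure D1:**
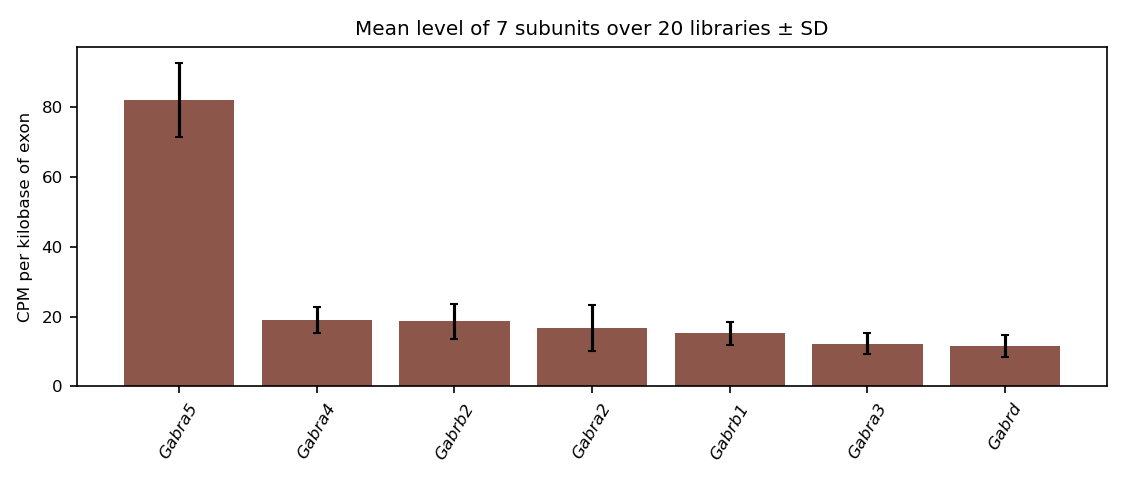
Mean level of each of the 7 subunits over 20 libraries in CPM per kilobase of exon, with SD bars. Gabra5 stands at 82.1, and the other 6 lie between 11.5 and 19.0.

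The group mean of Gabra5 was lowest in Pool 2 mice, as were those of Gabra2, Gabrb1 and Gabrb2. Gabra5 was at 192, 210.3, 236, 213 and 231 CPM in Pool 2 replicates 1 to 5. It was at 243, 269, 295, 246 and 225 CPM in Control mice and at 235, 266, 294, 281 and 241 CPM in Pool 1 mice. Of the 5 Pool 2 libraries, 3 lay under every Control library and 4 under every Pool 1 library, and the ranges still overlapped. Vehicle mice had 179, 239.9, 251, 259.8 and 276 CPM, and Vehicle replicate 1 was the lowest of all 20 libraries. The means were 217 ± 17.7 CPM in Pool 2 (SD, n = 5), 256 ± 27.1 in Control, 263 ± 25.4 in Pool 1 and 241 ± 37.1 in Vehicle mice.

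The log2 fold change of Gabra5 was −0.24 from Control to Pool 2 (SE 0.104, 95% interval −0.45 to −0.0261, edgeR unadjusted p = 0.0294, adjusted p = 0.584) and −0.28 from Pool 1 to Pool 2 (SE 0.104, 95% interval −0.50 to −0.0686, edgeR unadjusted p = 0.0118, adjusted p = 0.407). In two-sided exact permutation tests of the log2 CPM the p-values were 0.0238 and 0.0159, each 0.333 after adjustment over the 28 tests of 7 subunits in 4 comparisons, where the smallest p that 5 against 5 allows is 0.00794. Neither difference passed the threshold of the study, 0.3 or more in absolute log2 fold change with an unadjusted p under 0.05, and a test of any difference among the 4 groups gave an edgeR p of 0.0583 (adjusted p = 0.655). Without Pool 2 replicate 1 the log2 fold changes were −0.20 from Control (edgeR adjusted p = 0.952) and −0.24 from Pool 1 (edgeR adjusted p = 0.872). Between Pool 1 and Control the difference was 0.0425 (95% interval −0.17 to 0.26) and between Control and Vehicle 0.0836 (−0.13 to 0.30). In such tissue RNA, fewer cells of a type and less RNA per cell cannot be told apart.

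Marker genes of other cell types differed between the same groups as Gabra5, in both directions. Over all genes, 50.7% of the differences were above 0 and 6.22% passed the threshold from Control to Pool 2. The shares were 53.5% and 6.82% from Pool 1 to Pool 2. From Control to Pool 2, the differences were above 0 for 13 of 13 thalamic genes (median 0.68, 6 past the threshold), 8 of 8 microglial genes (median 0.43, 4 past it) and 8 of 8 endothelial genes (median 0.31, 2 past it). They were above 0 for 1 of 8 CA1 pyramidal neuron genes (median −0.0983, 0 past it) and 2 of 14 interneuron genes (median −0.24, 2 past it, Dlx1 and Dlx6, both lower in Pool 2). From Pool 1 to Pool 2 they were above 0 for 13 of 13 thalamic genes (median 1.29, 9 past it), 8 of 8 microglial genes (median 0.50, 6 past it) and 8 of 8 endothelial genes (median 0.24, 2 past it), but for 0 of 8 CA1 genes (median −0.41, range −0.48 to −0.35, 0 past it) and 1 of 14 interneuron genes (median −0.24, 2 past it, Lhx6 and Dlx1, both lower in Pool 2). The summed thalamic level was 208 to 730 CPM in Pool 2 mice, 186 to 362 in Control mice and 163 to 216 in Pool 1 mice, and that of the endothelial genes 230 to 324, 138 to 266 and 204 to 252 CPM, and no gene of these lists was at 0 throughout a group. The microglial level was 272 to 834, 269 to 365 and 268 to 319 CPM in the same groups, and these ranges overlapped. Of 8 astrocyte genes, 8 were above 0 in both comparisons (medians 0.076 and 0.19, 1 and 2 past the threshold). Of 10 dentate granule cell genes, 9 were above 0 from Control to Pool 2 and 10 from Pool 1 to Pool 2 (medians 0.074 and 0.33). Of 8 oligodendrocyte genes it was 6 and 8 (medians 0.037 and 0.14), and 0 of either list passed. Pool 2 replicate 1 had the highest microglial (834 CPM) and endothelial (324 CPM) level of all libraries. Over the 20 libraries Gabra5 was inversely related to the mean log2 CPM of 12 neocortical genes (r = −0.67, rho = −0.64, permutation p adjusted over 84 relations 0.0273 and 0.0318) and of 8 endothelial genes (r = −0.64, rho = −0.65, permutation p adjusted 0.0288 and 0.0318). Without the 2 libraries farthest from the median these r values were −0.49 and −0.46, and with the group means subtracted −0.56 and −0.53. The part of these cells in the Gabra5 difference was not tested.

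**Figure D2:**
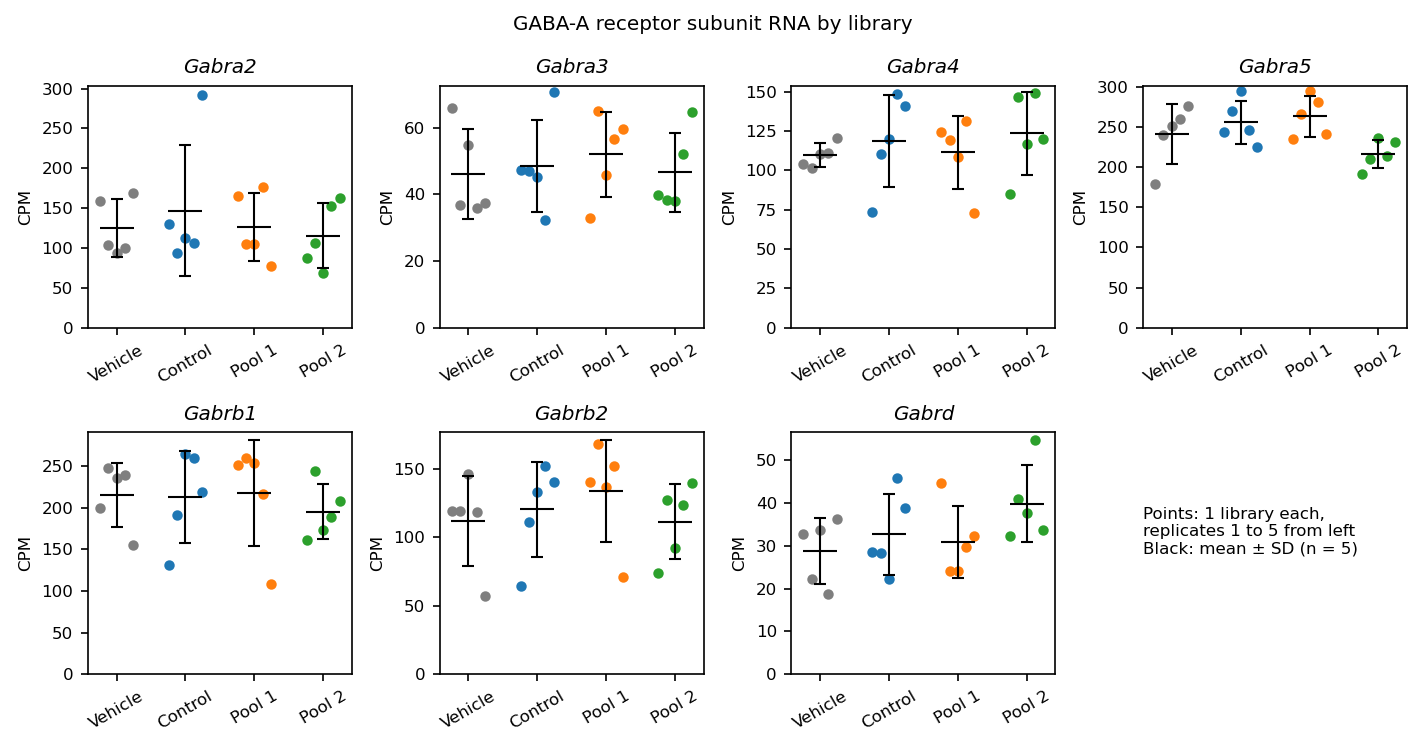
CPM of each of the 7 subunits in every library by group, with replicates 1 to 5 from left to right and the mean and SD (n = 5) in black. Gabra5 in Pool 2 spans 192 to 236 CPM, and Gabra2 in Control replicate 5 stands alone at 292 CPM.

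Gabra2 had the widest spread among the subunits, with an SD of 39.4% of its mean over the 20 libraries against at most 27.2% for the others. It was at 130.0, 94.4, 113, 106 and 292 CPM in Control mice, where replicate 5 was above any other Control library. The values were 165, 105, 105, 176 and 77.3 CPM in Pool 1 mice and 87.0, 106, 69.2, 153 and 163 CPM in Pool 2 mice. Vehicle mice had 159, 103, 94.1, 100.3 and 169 CPM, so that the 4 groups overlapped broadly. The log2 fold changes were −0.23 in Pool 1 against Control (95% interval −0.93 to 0.48), −0.35 in Pool 2 against Control (−1.05 to 0.36), −0.12 between the pools (−0.82 to 0.58) and 0.23 in Control against Vehicle (−0.47 to 0.93), with edgeR adjusted p of 0.874 to 0.980. Leaving out Control replicate 5 turned the differences that involve Control to 0.18, 0.063 and −0.18, so that their direction rested on that library.

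Gabra3, whose product is found in synaptic receptors of several forebrain and brainstem nuclei, was lower and similar among the groups. Its values were 35.9 to 65.8 CPM in Vehicle, 32.2 to 70.6 in Control, 32.8 to 64.9 in Pool 1 and 38.0 to 64.7 in Pool 2 mice. The log2 fold changes ran from −0.16 (Pool 2 against Pool 1, 95% interval −0.64 to 0.32) to 0.10 (Pool 1 against Control, −0.38 to 0.58). Gabra4, the α partner of δ, was at 101 to 121 CPM in Vehicle, 73.5 to 148 in Control, 73.1 to 132 in Pool 1 and 84.9 to 149 in Pool 2 mice. Its log2 fold changes ran from −0.0898 (Pool 1 against Control, 95% interval −0.46 to 0.28) to 0.15 (Pool 2 against Pool 1, −0.22 to 0.51). For both genes each 95% interval held 0, and changes within these bounds were not excluded.

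The β subunits line the GABA binding site together with an α subunit. Gabrb1 was at 131, 191, 265, 259 and 219 CPM in Control mice and at 251, 260.2, 253, 216 and 108 CPM in Pool 1 mice. It was at 161, 244, 174, 188 and 208 CPM in Pool 2 mice and at 199, 247, 235, 239.5 and 155 CPM in Vehicle mice. The lowest values, in Pool 1 replicate 5, Control replicate 1 and Vehicle replicate 5, came from 3 different groups. The log2 fold changes of Gabrb1 were 0.0325 in Pool 1 against Control (95% interval −0.42 to 0.49), −0.13 in Pool 2 against Control (−0.58 to 0.33), −0.16 between the pools (−0.61 to 0.30) and −0.0158 in Control against Vehicle (−0.47 to 0.44).

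Gabrb2, the other β subunit, followed the same libraries. It was at 64.2, 111, 133, 152 and 140.4 CPM in Control mice and at 140.5, 168, 137, 152 and 70.7 CPM in Pool 1 mice. Pool 2 mice had 73.6, 127, 92.4, 123 and 139 CPM and Vehicle mice 119, 119, 146, 118 and 57.0 CPM. The same 3 libraries that were lowest for Gabrb1 were the lowest for Gabrb2, in another order. The log2 fold changes were 0.15 in Pool 1 against Control (95% interval −0.42 to 0.72), −0.11 in Pool 2 against Control (−0.68 to 0.46), −0.26 between the pools (−0.84 to 0.31) and 0.10 in Control against Vehicle (−0.47 to 0.67).

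Gabrd, the δ subunit of receptors outside synapses, had its highest mean in Pool 2 mice. It was at 32.3, 41.0, 37.7, 54.8 and 33.8 CPM in Pool 2 mice and at 44.7, 24.2, 24.2, 29.8 and 32.2 CPM in Pool 1 mice. Control mice had 28.6, 28.2, 22.2, 45.9 and 38.8 CPM and Vehicle mice 32.8, 22.4, 33.7, 18.8 and 36.4 CPM. Only Pool 2 replicate 4 exceeded every Control library or every Pool 1 library, and the groups overlapped. The log2 fold change in Pool 2 was 0.29 against Control (95% interval −0.18 to 0.75, edgeR adjusted p = 0.826) and 0.36 against Pool 1 (−0.11 to 0.83, edgeR unadjusted p = 0.121, adjusted p = 0.718). The latter was 0.53 without Pool 1 replicate 1 (edgeR unadjusted p = 0.0266), past the threshold of the study, and 0.22 without Pool 2 replicate 4. Pool 2 replicate 4 also had the highest thalamic level, 730 CPM. From Pool 1 to Pool 2, 53.5% of all genes were above 0 and 6.82% passed the threshold. Differences were above 0 for 13 of 13 thalamic genes (median 1.29, 9 past it) and 10 of 10 dentate granule cell genes (median 0.33, 0 past it). The part of these cells in the Gabrd values was not tested.

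The effect of sRNAs from patients was addressed by comparing each pool with the Control mice, which both comparisons share. In Pool 1 against Control, 0 of the 7 subunits passed the threshold, where 3.48% of all genes did, 4 of the 7 differences were above 0 (48.9% of all genes) and their median was 0.0325, beside −0.00541 over all genes. In Pool 2 against Control, 0 of 7 passed against 6.22% of all genes, with 2 differences above 0 (50.7% of all genes) and a median of −0.11, beside 0.00294 over all genes. Between Pool 2 and Pool 1, 0 of 7 passed against 6.82% of all genes, with 2 differences above 0 (53.5%) and a median of −0.16, beside 0.0191. In Control against Vehicle, which addresses the infusion of control sRNAs as such, 0 of 7 passed against 5.1% of all genes, with 6 differences above 0 (46.8%) and a median of 0.10, beside −0.0121. At an unadjusted edgeR p under 0.05 alone, Gabra5 was the single subunit in Pool 2 against Control (7.7% of all genes) and in Pool 2 against Pool 1 (8.52% of all genes), and 0 subunits were below it in Pool 1 against Control (5.22%) and in Control against Vehicle (6.64%). DESeq2 placed 0 subunits past the threshold as well, with Gabra5 at −0.25 (DESeq2 adjusted p = 0.514) and −0.30 (DESeq2 adjusted p = 0.265). No gene of the table reached an edgeR adjusted p under 0.05 in any of the 4 comparisons. For none of the 7 subunits were the groups apart without overlap, which held for 0.861%, 1.05%, 1.41% and 0.607% of all genes in the 4 comparisons in this order.

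**Figure D3:**
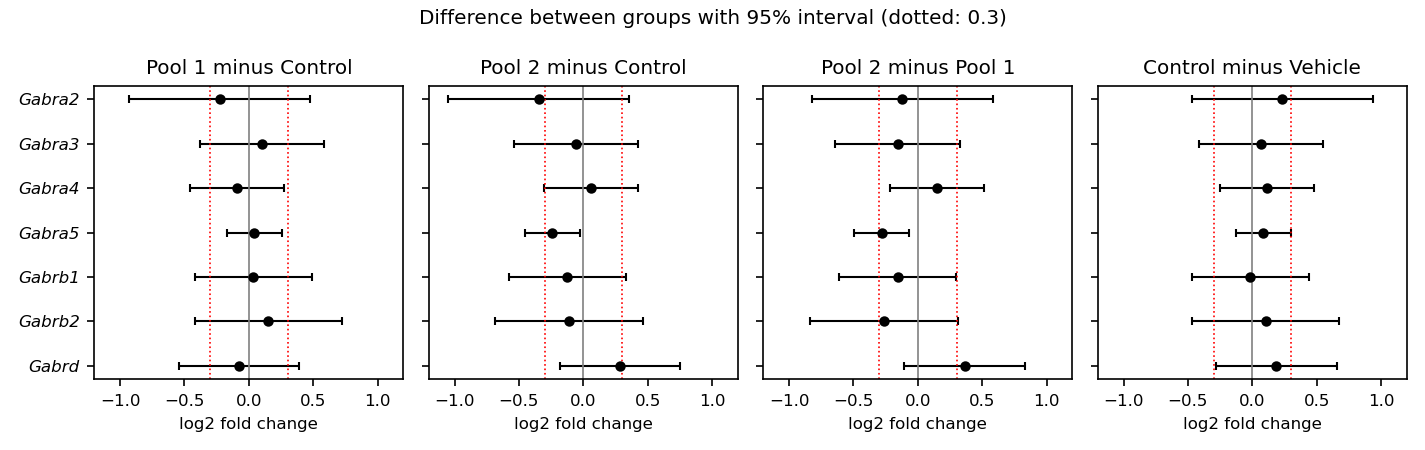
Log2 fold change of each subunit with its 95% interval (edgeR) in the 4 comparisons, with dotted lines at 0.3 on either side. The intervals of Gabra5 in Pool 2 against Control and against Pool 1 lie under 0, and all others hold 0.

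Genes that act with the receptor were described from 5 lists. Of 11 other subunits counted, only Gabra6 passed the threshold, in Pool 2 against Pool 1 (log2 fold change 1.53, edgeR unadjusted p = 0.0174, adjusted p = 0.456), at means of 4.33 ± 2.83 and 1.49 ± 0.821 CPM (SD, n = 5), and without Pool 2 replicate 5 it did not pass. Of 22 genes for anchoring and trafficking none passed in any comparison, with medians from −0.12 to 0.060, and gephyrin (Gphn) was at −0.12 in Pool 1 against Control, −0.16 in Pool 2 against Control and 0.16 in Control against Vehicle. Of 10 genes for GABA synthesis, release, uptake and breakdown none passed over all libraries, while in Pool 2 against Control 1 passed with DESeq2 and up to 2 did when 1 library was left out. The GABA transporter gene Slc6a13, picked after its values were seen, had the highest value there, at 1.05 (95% interval −0.00035 to 2.10, edgeR adjusted p = 0.650). The GABA-synthesising enzymes and the vesicular transporter were at −0.13 (Gad1), −0.23 (Gad2) and −0.12 (Slc32a1) in Pool 2 against Control and at 0.0474, −0.0459 and 0.12 in Pool 1 against Control, with edgeR adjusted p of 0.745 to 0.992.

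Chloride transporters set the direction of the GABA-A current. A list of 5 genes covered such transporters, their regulating kinases and a chloride channel. Of these, Slc12a2, the chloride importer NKCC1, was lower in Control than in Vehicle mice (log2 fold change −0.47, edgeR unadjusted p = 0.0473, adjusted p = 0.746). Slc12a2 is also expressed in choroid plexus, whose 8 marker genes all had differences under 0 in that comparison (median −1.82, 4 past the threshold), with a summed level of 215 to 9118 CPM in Vehicle and 121 to 2317 CPM in Control mice. Over all genes, 46.8% were above 0 and 5.1% passed the threshold there. The number of genes of this 5-gene list past the threshold was 0 without Vehicle replicate 1, 2 or 4, with filterByExpr, with DESeq2 size factors and with only the 2 groups compared. The chloride exporter KCC2 (Slc12a5) was at 0.21 in Pool 1 against Control (edgeR adjusted p = 0.917) and 0.0627 in Pool 2 against Control. Of 5 genes of metabotropic GABA-B receptors none passed, and the receptor subunits were at 0.16 (Gabbr1) and 0.0922 (Gabbr2) in Pool 1 and at 0.00457 and 0.0103 in Pool 2, each against Control.

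Across the 20 libraries, the levels of the β subunits rose and fell together. Of 21 pairs of subunits, Gabrb1 and Gabrb2 were the single pair with an adjusted permutation p under 0.05 in both Pearson and Spearman correlation of log2 CPM (r = 0.86, permutation p = 1e-05, the smallest that 100000 permutations give, adjusted 0.00021, and rho = 0.76, permutation p = 0.00021, adjusted 0.00441). The r was 0.82 without Pool 1 replicate 5 and Control replicate 1, the libraries farthest from the median, and 0.89 with the group means subtracted. Gabra4 had r = 0.67 with Gabrb1 (permutation p adjusted 0.0162, rho = 0.35, permutation p adjusted 0.447) and 0.65 with Gabrb2 (0.0162, rho = 0.53, 0.0766), but 0.27 and 0.40 without the same 2 libraries, on which these relations rest. Gabra4 and Gabrd had rho = 0.62 (permutation p adjusted 0.0465) and r = 0.43 (permutation p adjusted 0.227).

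The libraries low in β subunits were also low in long transcripts. This measure, chosen after the values were seen, is the mean log2 CPM of 1370 protein-coding genes with at least 10000 exonic bases minus that of 531 such genes with under 1500. The 7 subunits were left out of both lists, and Gabrb1 has 13838 exonic bases itself, Gabrb2 6360. It was lowest in Control replicate 1 (0.74), Pool 1 replicate 5 (0.88), Control replicate 2 (1.03), Vehicle replicate 5 (1.08) and Pool 2 replicate 1 (1.11), and its group means were 1.54 ± 0.269 in Vehicle, 1.29 ± 0.409 in Control, 1.48 ± 0.358 in Pool 1 and 1.37 ± 0.266 in Pool 2 mice (SD, n = 5). Its correlation over 20 libraries was r = 0.88 with Gabrb1 and 0.82 with Gabrb2 (rho = 0.79 and 0.72, permutation p adjusted over 7 relations 7e-05 and 0.00014 for r, 0.00035 and 0.00147 for rho), and 0.82 and 0.72 without the 2 farthest libraries. Gabra4 had r = 0.62, but 0.28 without these libraries, while Gabra5 (−0.081), Gabra2 (0.18), Gabra3 (−0.089) and Gabrd (0.038) had r values near 0. RNA integrity per library was not analysed here, and what sets this measure was not tested.

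**Figure D4:**
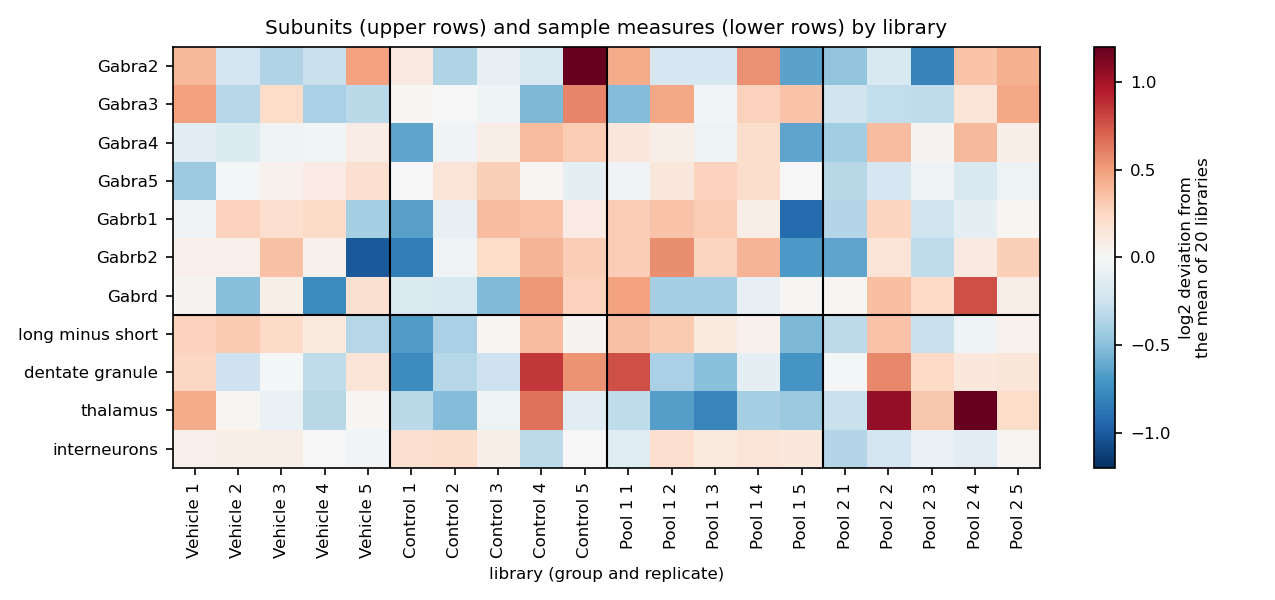
Log2 deviation of each subunit (upper rows) from its mean over the 20 libraries, with long minus short transcripts and the mean log2 CPM of 3 marker lists (lower rows). Gabrb1 and Gabrb2 are lowest in Pool 1 replicate 5, Control replicate 1 and Vehicle replicate 5, and Gabrd is highest in Pool 2 replicate 4.

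Other subunits varied with marker genes of hippocampal fields. Gabrd rose with the mean log2 CPM of the 10 dentate granule cell genes (r = 0.71, rho = 0.81, permutation p adjusted over 84 relations 0.0181 and 0.00168) and of the 13 thalamic genes (r = 0.67, rho = 0.63, permutation p adjusted 0.0273 and 0.0318). Gabra4 rose with the dentate genes (r = 0.71, rho = 0.65, permutation p adjusted 0.0181 and 0.0318). Gabra3 rose with the 8 CA1 genes (r = 0.65, rho = 0.63, permutation p adjusted 0.0288 and 0.0318) and was inversely related to the 10 CA3 and CA2 genes (r = −0.66, rho = −0.63, permutation p adjusted 0.0288 and 0.0318). Without the 2 farthest libraries these r values were 0.62 and 0.49 for Gabrd, 0.71 for Gabra4, and 0.54 and −0.75 for Gabra3, and with group means subtracted they were 0.70, 0.66, 0.70, 0.65 and −0.66 in the same order. Together with those of Gabra5, 7 of the 84 relations passed by both measures, and Gabrd with choroid plexus passed by r alone (r = −0.62, rho = −0.52, permutation p adjusted 0.0301 and 0.102). Another 4 passed by rho alone, each at a permutation p of 0.0318 after adjustment. These were Gabrb1 with microglia (rho = −0.63, r = −0.42, permutation p of r adjusted 0.220) and with endothelium (rho = −0.62, r = −0.48, permutation p of r adjusted 0.154), Gabrb2 with microglia (rho = −0.63, r = −0.57, permutation p of r adjusted 0.0759), and Gabrd with interneurons (rho = −0.67, r = −0.59, permutation p of r adjusted 0.0501). Levels of lists and subunits come from the same libraries, and share their depth and scaling.

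**Figure D5:**
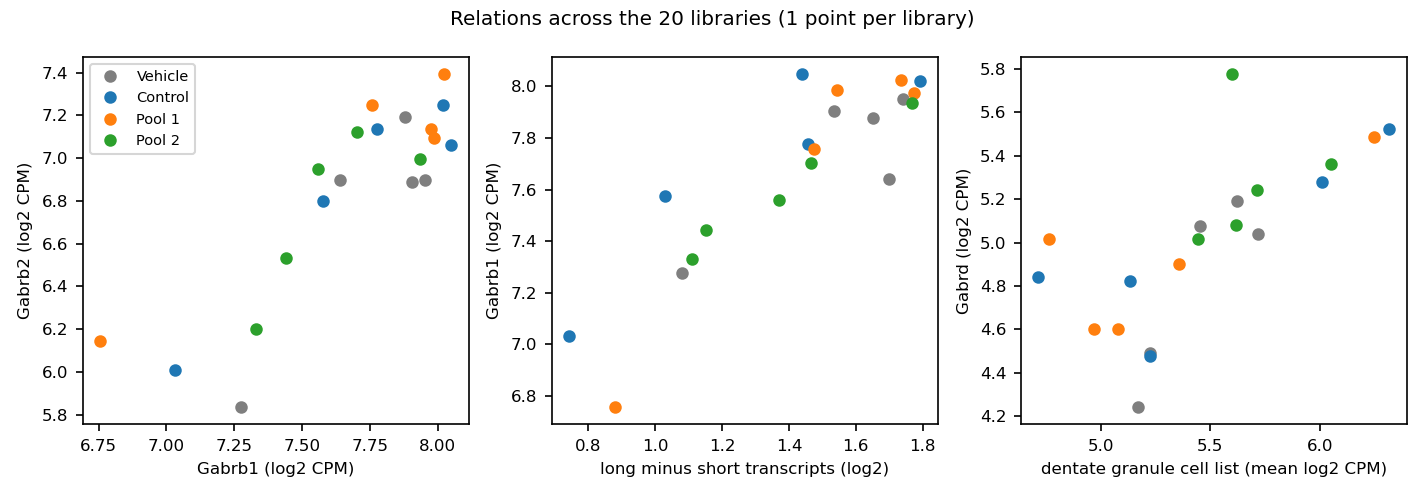
Gabrb2 against Gabrb1, Gabrb1 against long minus short transcripts, and Gabrd against the mean of the dentate granule cell list, all on the log2 scale, with 1 point per library coloured by group. The groups intermingle, and r over the 20 libraries is 0.86, 0.88 and 0.71.

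The genes most like each subunit over the 20 libraries were sought among 12087 genes with a mean normalised count of at least 100, by Pearson r of log2 CPM and as a description. Gabra5 was closest to Tafa1 (0.92), Mapk10 (0.92) and Ndfip2 (0.87), Gabra4 to Negr1 (0.93), Il1rapl1 (0.91) and Pkia (0.91), and Gabra3 to Ccn3 (0.94), Efnb2 (0.91) and Cdkl4 (0.90). Gabrb1 had Med13 (0.99), Vps13a (0.98) and Celf2 (0.98), and Gabrb2 had Kcnb2 (0.95), Pcdhb16 (0.94) and Fam120c (0.94). Gabrd was closest to Pde1b (0.93), Nrip2 (0.93) and Tmem145 (0.90). The best matches of Gabra2 were weaker, with Dbpht2 at 0.76, Katnbl1 at 0.72 and Srsf7 at 0.71.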

How the data were processed

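RNA from 20 libraries was analysed. The authors sequenced stranded poly(A) libraries, aligned the reads with STAR to mm10 and deposited raw counts per gene, without normalization, for 25190 genes whose counts sum to at least 10. Every sample column was used, and groups came from the labels. Counts were tested with edgeR 4.0.16 (TMM, robust quasi-likelihood fit of 4 groups) in R 4.3.3, with Benjamini-Hochberg adjustment over all genes. A gene was called at unadjusted p under 0.05 and 0.3 or more in absolute log2 fold change, the threshold of the study. The study also dropped genes with a mean count under 10 from its calls, a step used here only as an alternative. Single subunits were compared by exact permutation of log2 CPM (prior count 2), and correlations by 100000 permutations.

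All 7 members were named, with the pathway genes past the threshold, 7 further pathway genes (Gphn, Gad1, Gad2, Slc32a1, Slc12a5, Gabbr1 and Gabbr2), and the 3 genes most alike each member. The members and lists were chosen with earlier results of these data known. The 95% intervals of log2 fold changes come from the edgeR fit and use the spread between libraries, whereas the floor of 3 counts covers counting error only. Alternatives were DESeq2 1.42.0, its size factors, filters (mean normalized count of 10, filterByExpr), only the 2 groups compared, default spread, replicate block, another gene length and leaving out libraries. Gene models for lengths and positions were those of GENCODE on GRCm38. Protein sequences were not used here, and some other genes are not reported here.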

Additional observations from a re-analysis of the deposited data

Results flagged for a closer look

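Of 28 sets of 5 libraries (7 subunits in 4 groups), 2 had a library far from the others by Dixon's test, where chance gives about 1 in 20. Gabra2 in Control replicate 5 was at 292 CPM, with a gap to the next library of 0.820 of the range of the group. Gabrb1 in Pool 1 replicate 5 was the lowest of its group at 108 CPM, with a gap of 0.7102 of the range against a critical value of 0.71.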

How the results depend on the processing

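Of 784 values of the subunits under an alternative, 739 kept their direction and side of the threshold, 8 passed it and 37 changed sign, each with an edgeR or DESeq2 adjusted p of at least 0.265. The number of subunits past the threshold in Pool 2 against Pool 1, 0 over all libraries, was 1 with filterByExpr (Gabra5, −0.31), 1 with only the 2 groups compared (Gabra5, −0.32), and 0 to 2 when 1 library was left out: Gabra5 passed without Vehicle replicate 1, Pool 1 replicate 1, Pool 1 replicate 5, Pool 2 replicate 3 or Pool 2 replicate 5, and Gabrd without Pool 1 replicate 1. In the other comparisons it was 0 throughout.

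Signs changed mainly when 1 library was left out. In Pool 1 against Control, the range was Gabrb1 −0.10 to 0.20, Gabrb2 −0.00795 to 0.31, Gabra3 −0.017 to 0.28, Gabra4 −0.22 to 0.0295, Gabrd −0.25 to 0.0759, Gabra2 −0.38 to 0.18 and Gabra5 −0.00027 to 0.10. In Pool 2 against Control, the range was Gabra4 −0.0724 to 0.17, Gabra2 −0.50 to 0.0625, Gabra3 −0.20 to 0.12 and Gabrb2 −0.27 to 0.00461. In Pool 2 against Pool 1, the range was Gabra2 −0.28 to 0.0327. In Control against Vehicle, the range was Gabra3 −0.11 to 0.24, Gabrb1 −0.11 to 0.12, Gabrb2 −0.0651 to 0.26 and Gabra2 −0.18 to 0.36. Gabrb1 in Control against Vehicle was 0.0082 with filterByExpr. Without Vehicle replicate 4 and Pool 2 replicate 1 together, Gabrb1 was 0.025 and Gabra3 −0.0088 in Control against Vehicle, and Gabrb2 was 0.0046 in Pool 2 against Control. The cause was not tested.

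Replicate numbers gave no clear pairing of the libraries. A correlation of deviations over 0.1 was found in 10 of 30 same-numbered pairs (median 0.028). It was found in 27 of 120 differently numbered pairs (median −0.015), and 1 of 20 libraries was closest to its own number. With the replicate block, 0 subunits passed in any comparison, and Gabra5 was at −0.24 and −0.28 in Pool 2 against Control and Pool 1. Of all genes, 402 to 1133 passed the threshold at a mean normalized count of at least 10 and 426 to 1153 with filterByExpr, against 876 to 1718 unfiltered. With 5 libraries per group, changes of any size within the 95% intervals were not excluded.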

Other observations

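Among genes of interneurons, the main source of hippocampal GABA, log2 fold changes were negative in Pool 2 against Control for Dlx1 and Dlx6 and in Pool 2 against Pool 1 for Dlx1 and Lhx6, past the threshold of the study but not after adjustment over all genes. Over all genes, 6.22% passed in Pool 2 against Control, where 50.7% were above 0, and 6.82% passed in Pool 2 against Pool 1. Of the 14 interneuron genes, 2 had a log2 fold change above 0 in Pool 2 against Control (median −0.24), and their summed level was 1129 to 1386 CPM in Pool 2, 1187 to 1651 CPM in Control and 1259 to 1535 CPM in Pool 1 mice. In Pool 1 against Control 7 of the 14 were above 0 (median 0.015), with Kit past the threshold, beside 48.9% above 0 and 3.48% past it over all genes. Of 8 astrocyte genes, 8 were above 0 in Pool 2 against Control (median 0.076) with Gfap past the threshold. In Pool 1 against Control 2 of the 8 astrocyte genes were above 0 (median −0.13), and Gfap was past the threshold in the opposite direction. Their summed level was 4760 to 7589 CPM in Pool 2 and 4976 to 5981 CPM in Control mice, with the highest value in Pool 2 replicate 1. Of 8 oligodendrocyte and 8 striatal genes, 0 passed the threshold in Pool 2 against Control, with medians of 0.037 and 0.21.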
